A study of Mus musculus with 3 samples.

Results

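The 10 genes described here are 8 nuclear receptor genes, those for glucocorticoids, vitamin A, vitamin D, oxysterols and fatty acids, and 2 genes that the glucocorticoid receptor is known to induce. They were chosen by name from the 55536 annotated genes of the deposited gene tables, and all 10 were found: Nr3c1, Tsc22d3, Fkbp5, Nr1h2, Nr1h3, Rara, Rxra, Rxrb, Vdr and Ppard. No measured value entered the rule, although the genes were chosen with earlier results of these data known. The series holds 1 group of 3 polyA-selected RNA-seq libraries of inflammation-experienced regulatory T cells from an adult male mouse of 16 weeks, strain Foxp3GFP-DTRCD4CreERT2R26tdTomato. The labels call them technical replicates 1 to 3 of biological replicate 1, from a single donor, and here they are libraries 1, 2 and 3. All libraries share that genotype, whose name joins a GFP and diphtheria toxin receptor allele of Foxp3, a tamoxifen-dependent Cre named for CD4 and a tdTomato reporter at R26, and the labels name no toxin, tamoxifen, stimulus or time. There is no resting or untreated group, so no value below is a change caused by inflammation. The SD over libraries holds no variation between mice.

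Nuclear receptors are transcription factors whose activity is set by small lipid-soluble ligands. The glucocorticoid receptor waits in the cytoplasm in a complex with heat shock proteins and enters the nucleus with its hormone, whereas the retinoic acid, vitamin D, liver X and PPAR receptors pair with a retinoid X receptor (RXR) on DNA. In regulatory T cells these pathways are known for work on gut homing, lipid handling and restraint of inflammatory genes.

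All 10 genes were expressed at 1 TPM (a transcript's share of all transcripts, scaled for length and depth) or more in each library, a limit that 47.4% of 22028 protein-coding genes reached. Their levels ran from 1.89 to 315 TPM, and their median of 12.3 TPM lay between the median of all protein-coding genes, 0.888 TPM, and that of the genes with enough counts to be tested between libraries, 13.5 TPM. The highest were the glucocorticoid target Tsc22d3, the liver X receptor gene Nr1h2 and the glucocorticoid receptor gene Nr3c1, each over 50 TPM in each library. Depth was 20942875, 18402479 and 17494966 expected counts over annotated genes. Of the 10 genes, 7 had no read shared with another gene in any library, and the largest posterior SD of a gene's count was 0.84 counts. The 6 regulatory T cell markers were all detected, with Foxp3 at 74.4 ± 13.8 TPM (SD, n = 3) and Cd4 at 266 ± 27.5 TPM. Among markers of other cells, the erythroid markers, mostly haemoglobin genes, summed to 1389, 1097 and 1750 TPM, B cell markers to 67.5, 72.7 and 78.3 TPM, macrophage markers to 47.1, 48.0 and 36.1 TPM, epithelial and stromal markers to 98.7, 116 and 109 TPM (nearly all Pecam1, an endothelial gene that leukocytes also express, at 104 ± 10.2 TPM), dendritic cell markers to 2.45 to 3.25 TPM and granulocyte markers to at most 2.60 TPM, with Mpo and Elane at no count. Their part in the levels below was not tested, and in such bulk RNA fewer cells of a type and less RNA per cell cannot be told apart.

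**Figure D1:**
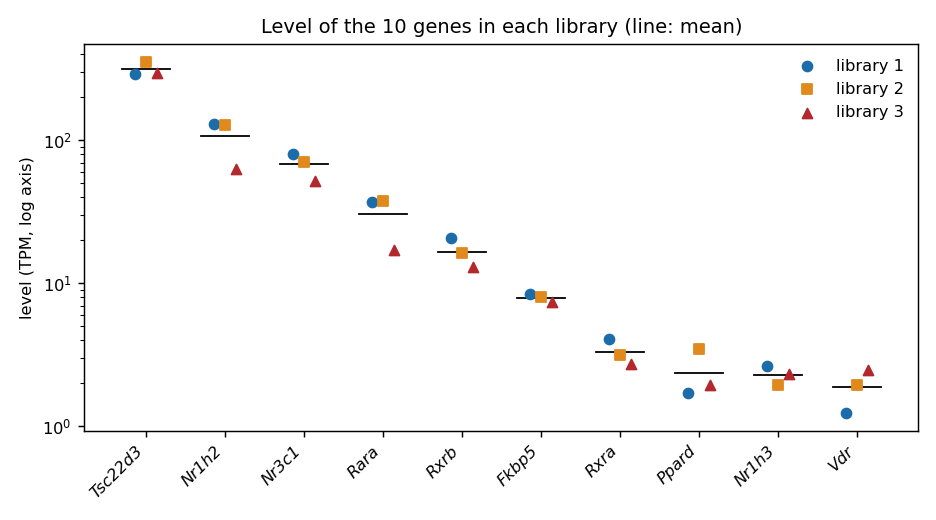
Level of the 10 genes in TPM on a log axis, with 1 point for each library and a bar at the mean of the 3 libraries. Tsc22d3 stands highest at 292 to 355 TPM, and the library 3 points of Nr1h2 and Rara lie well below those of libraries 1 and 2.

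The glucocorticoid receptor gene Nr3c1 (ENSMUSG00000024431.15) was read at 80.4, 71.1 and 52.4 TPM, from 3466, 2638 and 2137 expected counts, a mean of 68.0 ± 14.3 TPM and rank 2561 of the protein-coding genes. Library 3 was the lowest, 0.42 below the mean of the other libraries on the log2 scale of scaled counts (log2 ratio −0.42). Nr3c2, which encodes the mineralocorticoid receptor, a close paralog that also binds corticosteroids, stood at 14.1, 10.8 and 11.5 TPM. Nr3c1 was above Nr3c2 in every library, by 2.38 ± 0.26 on the log2(TPM + 1) scale. This difference met the rule used throughout for pairs of genes, which asks for 1 sign in all 3 libraries and a mean over 2 SD. No p is given for pairs, because an exact sign-flip permutation test over 3 libraries cannot go below 0.25.

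Tsc22d3 (ENSMUSG00000031431.13, chrX:140539528-140600659, minus strand, mm10), which encodes GILZ, a leucine zipper protein that mediates anti-inflammatory effects of glucocorticoids, was the highest of the 10 genes. Its level was 292, 355 and 296 TPM, a mean of 315 ± 35.5 TPM, which placed it at rank 425, within the top 1.93% of protein-coding genes. Library 2 was the highest and libraries 1 and 3 were close to each other. Fkbp5 (ENSMUSG00000024222.17, chr17:28399094-28517527, minus strand), whose product FKBP51 is a co-chaperone that lowers the receptor's affinity for hormone, was read at 8.47, 7.99 and 7.44 TPM. With a coefficient of variation of 6.47% it was the steadiest of the 10 genes. Tsc22d3 therefore exceeded Fkbp5 by 34.5, 44.5 and 39.8 times in libraries 1, 2 and 3, or by 5.13 ± 0.18 on the log2(TPM + 1) scale. In the second deposited gene table the log2 difference was smaller, 3.46 per kilobase of merged exons and 3.70 per kilobase of merged coding sequence, the latter scale chosen after seeing the data.

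Other genes of the glucocorticoid pathway were abundant on the receptor's side and uneven among targets. All 9 chaperones of the receptor were detected, with a median of 144 TPM. Hspa8, the constitutive HSP70, reached 1871 ± 410 TPM, its cochaperone Dnaja1 299 ± 65.3 TPM and the HSP90 genes Hsp90ab1 and Hsp90aa1 698 ± 93.1 and 286 ± 49.6 TPM. Of 12 further target genes, 9 were detected and the median was 8.08 TPM. The highest were Nfkbia, the inhibitor of NF-kB, at 565 ± 234 TPM and Il7r, the receptor for interleukin 7, at 243 ± 36.7 TPM, and both are also set by other signals. Ddit4, an inhibitor of mTORC1, stood at 48.3 ± 16.7 TPM and the kinase gene Sgk1 at 25.6 ± 6.65 TPM. Hsd11b1, which encodes the enzyme that regenerates active glucocorticoid from its inert keto form, was read at 112, 113 and 139 TPM. Its mean of 122 ± 15.4 TPM ranked 1373 among protein-coding genes, above Nr3c1 itself. Most of its TPM, 68.0% ± 9.26, was assigned to the protein-coding transcript Hsd11b1-205, and the second deposited gene table also counted it, at 931, 889 and 999 reads.

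The Tsc22d3 level came from 1 transcript. Tsc22d3-201, a protein-coding transcript of 1974 bases from the proximal start, took 96.3% ± 1.54 of the gene's TPM. No count was assigned to Tsc22d3-203, the protein-coding transcript from the distal start, which encodes a longer form, nor to Tsc22d3-204 and Tsc22d3-206 from starts in between. For Tsc22d3-203 a count of 0 allows up to 0.153, 0.167 and 0.167 TPM in libraries 1, 2 and 3. Such limits cover counting error alone, because the reads carry no molecular identifiers. The sequence before the distal start is shown because it holds the only match in the gene's RefSeq windows to AGAACA, the hexamer that makes up each arm of a glucocorticoid response element. The whole element, that hexamer followed after 3 bases by its reverse complement, was in none of the 17 windows of the 9 genes that have one there (Nr3c1 has none), and it was in 0.00913% of 32851 windows genome-wide, while AGAACA alone was in 16.1% of them. Here a window is the 250 bases before a RefSeq start (build GRCm38.p6, the same assembly as mm10). Motifs and GC content were taken from those bases alone, in these genes and genome-wide, both strands were searched, and exon bases were left out of the printed stretch. A match is a description of letters, not a site. The bases below are chrX:140600660-140600772, minus strand, 5′ to 3′, with the hexamer in capitals.
Tsc22d3 distal start: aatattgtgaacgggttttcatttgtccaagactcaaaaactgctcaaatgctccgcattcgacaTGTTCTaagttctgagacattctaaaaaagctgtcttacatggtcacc

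The liver X receptors bind oxysterols and induce genes of cholesterol export and lipid synthesis, and their 2 genes stood far apart. Nr1h2 (ENSMUSG00000060601.13, chr7:44549616-44553951, minus strand), which encodes the widely expressed LXR-beta, was read at 131, 128 and 63.5 TPM, a mean of 107 ± 38.0 TPM and rank 1595. Nr1h3 (ENSMUSG00000002108.10, chr2:91184061-91202834, minus strand), which encodes LXR-alpha, known from liver and macrophages, was read at 2.63, 1.95 and 2.32 TPM from 59, 40 and 46 expected counts. The lowest library of Nr1h2 was still 27.4 times its Nr1h3 level, and in libraries 1 and 2 the ratio was 49.8 and 65.5. The difference was 4.97 ± 0.61 on the log2(TPM + 1) scale, 4.05 in the second table per kilobase of merged exons and 4.11 from expected counts on that length. Since Nr1h3 is known from macrophages, the macrophage markers stand beside it: 5 of 8 were at 1 TPM or more in each library and none was at 0 in all, with Csf1r at 15.7, 14.9 and 12.0 TPM, Lyz2 at 14.8, 15.0 and 7.45 TPM and Adgre1 at 4.23, 3.96 and 3.98 TPM. Their part in the Nr1h3 level was not tested. Of its 2515 exonic bases 34, or 1.35%, overlap another gene, Gm13783, which was read at 0.24 TPM or less.

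All 11 target genes of the liver X receptors were detected, with a median of 36.9 TPM. The highest was Smpdl3a, a phosphodiesterase of the acid sphingomyelinase family, at 213 ± 56.4 TPM. Srebf1, the master regulator of fatty acid synthesis, stood at 60.1 ± 23.6 TPM, the desaturase Scd2 at 56.7 ± 14.0 TPM and Lpcat3, which remodels phospholipids, at 53.3 ± 6.94 TPM. The lowest were Scd1 at 1.87 ± 0.41 TPM and Abca1 at 5.35 ± 0.80 TPM.

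The promoter windows of both genes are shown because the genes are paralogs of unlike level and their windows are of unlike base composition. Before the Nr1h2 start 48.4% of bases were G or C, and before the 2 Nr1h3 starts 63.6% and 63.2%, against a median of 52.4% over all windows. Neither gene had the GC box GGGCGG, which 32.7% of windows hold. The Nr1h2 window held CCGGAA, a core letter string of ETS family sites, 5 times counting both strands, and the Nr1h3 window once. CCGGAA was looked for after its repeats were seen in the Nr1h2 sequence, so the count supports nothing, and 12.0% of windows hold it at least once and 7 of 32851 hold 5 or more. Transcripts starting within 500 bases of these starts carried 6604 summed counts for Nr1h2 and 140 for Nr1h3. CCGGAA and its reverse complement are in capitals, on the minus strand 5′ to 3′, for chr7:44553966-44554215 and chr2:91195152-91195366.
Nr1h2: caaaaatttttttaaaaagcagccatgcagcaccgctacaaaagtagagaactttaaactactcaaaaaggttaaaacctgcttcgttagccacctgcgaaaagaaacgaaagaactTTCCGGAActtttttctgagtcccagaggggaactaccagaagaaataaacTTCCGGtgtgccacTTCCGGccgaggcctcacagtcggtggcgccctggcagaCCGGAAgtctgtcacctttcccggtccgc
Nr1h3: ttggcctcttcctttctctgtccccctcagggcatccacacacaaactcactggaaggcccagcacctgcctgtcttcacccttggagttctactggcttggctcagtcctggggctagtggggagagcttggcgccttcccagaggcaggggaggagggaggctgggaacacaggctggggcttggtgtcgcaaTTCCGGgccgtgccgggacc

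Among the retinoic acid receptors, Rara and Rarg were both expressed and Rarb was at the limit of detection. Rara (ENSMUSG00000037992.16, chr11:98927818-98974942, plus strand), which encodes the receptor known to carry most retinoic acid signals in T cells, was read at 37.3, 37.8 and 17.0 TPM. Rarg stood at 31.9, 36.4 and 37.7 TPM, so Rara was the higher in libraries 1 and 2 and the lower in library 3, and the pair did not differ by the rule (−0.28 ± 0.72). Rarb, itself a classical retinoic acid target, was at 0 counts in the first gene table, a result compatible with levels of up to 0.172 TPM, and had 1, 1 and 3 reads in the second deposited gene table. Of 10 retinoic acid targets 6 were detected. The gut-homing integrin genes led them, with Itgb7 at 679 ± 205 TPM and Itga4 at 288 ± 26.9 TPM. They were followed by the retinal reductase Dhrs3 at 12.9 ± 1.41 TPM and the transglutaminase Tgm2 at 7.01 ± 1.66 TPM. The gut-homing receptor gene Ccr9, on the same list, stood at only 4.57, 5.86 and 5.79 TPM. Cyp26a1, the enzyme that degrades retinoic acid and a sensitive target, had no count, which allows up to 0.213 TPM.

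The counts of Rara were assigned to transcripts from several start regions, in shares that varied by library. Rara-204 took 56.7%, 65.5% and 48.5% of the gene's TPM, and Rara-207, whose start lies 2013 bases further downstream, 5.75%, 16.7% and 38.8%. Rara-202, which starts 22714 bases downstream of Rara-204, took 14.7%, 11.3% and 9.75%. Rara-203, from the start farthest upstream, took 16.8% in library 1 and 0% in libraries 2 and 3. Its counts were 191, 0 and 0.01, with posterior SDs of 106, 43.1 and 43.7. Library 3 was lowest for Rara-204 and highest for Rara-207. In expected counts Rara-204 had 667, 717 and 239, with posterior SDs of 112, 52.8 and 42.9, while Rara-207 had 86.1, 233 and 243, with posterior SDs of 57.6, 81.4 and 43.2. No test of these shares was made. The windows before the starts of Rara-204 and Rara-207, the leading transcripts, are shown because they differ in GC boxes. That of Rara-204, chr11:98937446-98937695, had 4 (in capitals, either strand) and 65.2% GC, with 1841 summed counts within 500 bases of its start. That of Rara-207, chr11:98939461-98939710, had none and 58.8% GC, with 562 counts. Both are plus strand, 5′ to 3′.
Rara-204 start: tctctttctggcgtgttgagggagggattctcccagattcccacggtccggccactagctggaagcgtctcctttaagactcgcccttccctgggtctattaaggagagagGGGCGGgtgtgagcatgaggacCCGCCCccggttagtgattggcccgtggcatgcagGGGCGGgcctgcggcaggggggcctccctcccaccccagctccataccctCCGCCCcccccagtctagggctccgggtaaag
Rara-207 start: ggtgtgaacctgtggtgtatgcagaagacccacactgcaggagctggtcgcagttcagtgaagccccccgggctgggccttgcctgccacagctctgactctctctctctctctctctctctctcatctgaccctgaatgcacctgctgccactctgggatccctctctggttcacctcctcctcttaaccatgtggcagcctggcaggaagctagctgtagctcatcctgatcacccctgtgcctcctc

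Of the genes for the shared partner RXR, Rxrb was the highest. Rxrb (ENSMUSG00000039656.17, chr17:34031812-34038399, plus strand) was read at 20.7, 16.4 and 13.0 TPM and Rxra (ENSMUSG00000015846.14, chr2:27676440-27762957, plus strand), the RXR that leads in liver and skin, at 4.10, 3.16 and 2.75 TPM. Both were highest in library 1 and lowest in library 3. Their ratio was nearly constant at 5.04, 5.19 and 4.71, or 2.02 ± 0.10 on the log2(TPM + 1) scale, the smallest SD of the 18 pairs compared, and 1.16 from expected counts per kilobase of merged exons. Rxrg, known from muscle and brain, had 1, 0 and 1 counts. Rxra was carried by Rxra-201 at 98.7% ± 2.29 of its TPM, and Rxrb by Rxrb-202 at 53.1% ± 2.97 with Rxrb-201 at 14.8% ± 7.00.

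Vdr (ENSMUSG00000022479.15, chr15:97854425-97910630, minus strand), which encodes the vitamin D receptor, was the lowest of the 10 genes at 1.24, 1.95 and 2.49 TPM. It was also the only one with its highest level in library 3, from 70, 66 and 110 expected counts, and library 3 lay 0.78 above the mean of the other libraries (log2 of scaled counts). Vdr-201 held 98.0% of its counts. Of the gene's TPM, Vdr-201 took 100%, 62.6% and 84.2%, and Vdr-202, of 389 bases, took 0%, 37.4% and 15.8%. Those shares of Vdr-202 rest on 0, 2.96 and 1.60 counts. The enzymes of vitamin D were low as well: Cyp27b1, which makes the active hormone, had 0, 2 and 3 counts, and Cyp24a1, which degrades it and is its classical target, had 1, 2 and 2. Of the 19 enzymes and carriers of receptor ligands listed, only Hsd11b1, the fatty acid carrier Fabp5 (33.1 ± 3.19 TPM), the retinol dehydrogenase Rdh11 (24.0 ± 2.28 TPM) and the vitamin D 25-hydroxylase Cyp2r1 (1.65 ± 0.51 TPM) were at 1 TPM or more in each library, and 6 had no count.

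Ppard (ENSMUSG00000002250.16, chr17:28232700-28301474, plus strand), which encodes PPAR-delta, an activator of fatty acid oxidation, was read at 1.71, 3.45 and 1.96 TPM from 52, 68 and 66 expected counts. Most of that level was assigned to transcripts that do not encode the protein. Retained-intron transcripts led, with Ppard-208 at 34.2% ± 13.8 and Ppard-209 at 30.3% ± 26.8, and all protein-coding transcripts together took 19.1% ± 9.94 of its TPM and 25.9% ± 8.03 of its counts. The coding transcript Ppard-201 rested on 48.4 counts summed over the libraries. Ppard was above Ppara, which was read at 0, 0.08 and 0.32 TPM, by 1.55 ± 0.45 on the log2(TPM + 1) scale. In the second table per kilobase of merged exons that difference was 0.33 and no longer met the rule, and from expected counts on that length it was 0.50. Per kilobase of merged coding sequence in the second table it was 1.30 and met the rule. Ppard did not differ by the rule from Pparg, read at 1.25, 0.76 and 0.63 TPM (0.82 ± 0.54), except without library 1 (1.10), and in the second table per kilobase of exons the difference was −0.49. Of 8 targets of PPAR-delta 6 were detected, with the mitochondrial dehydrogenase Acadvl at 115 ± 8.39 TPM, catalase (Cat) at 92.5 ± 7.08 TPM, the carnitine transferase Cpt1a, which admits fatty acids to mitochondria, at 46.1 ± 10.1 TPM and the carnitine carrier Slc25a20 at 44.2 ± 2.31 TPM. Pdk4, a target with a strong response in muscle, had 1, 1 and 2 counts.

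**Figure D2:**
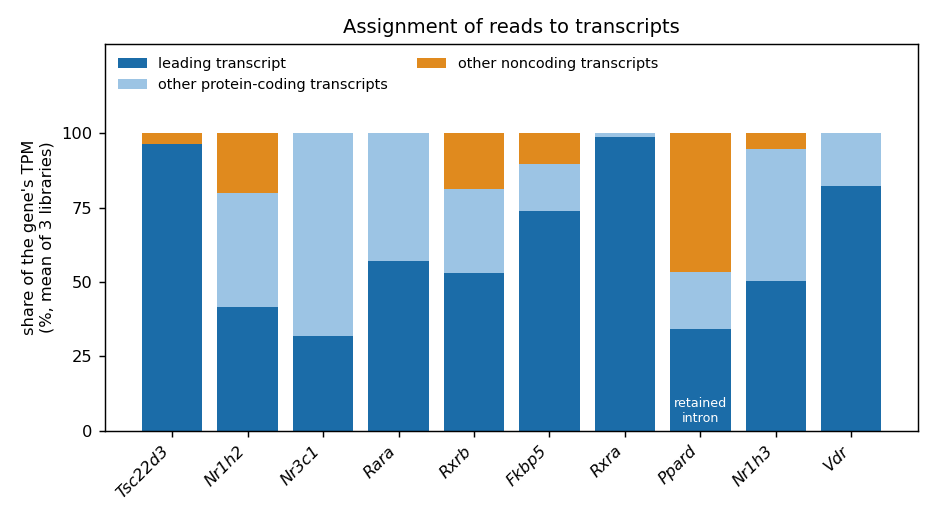
Mean share of each gene's TPM, in percent over the 3 libraries, held by its leading transcript, its other protein-coding transcripts and its other noncoding transcripts. One transcript took nearly all of Tsc22d3 and Rxra, whereas the leading transcript of Ppard, a retained intron, took 34.2%.

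Reads of the remaining genes were assigned to several transcripts. Nr3c1 was led by Nr3c1-208 (32.0% ± 11.9 of TPM) and the longer Nr3c1-203 (25.3% ± 3.11), followed by Nr3c1-209 (15.1% ± 2.81). Nr3c1-209 is only 377 bases long and held 1.51% of the gene's counts. Nr3c1-204 took 14.5% in library 3 and 0% in libraries 1 and 2. Its counts were 0, 0 and 571 in libraries 1, 2 and 3, with posterior SDs of 271, 188 and 233, so its presence in 1 library alone was not resolved. By counts the order of the leading pair was the other way, with 49.7% for Nr3c1-203, of 6436 bases, and 18.1% for Nr3c1-208, of 1891 bases. The counts of Nr3c1-203 had posterior SDs of 279, 201 and 228. Nr1h2 was led by Nr1h2-204 (41.6% ± 4.17) and Nr1h2-203 (29.9% ± 0.64), and its retained-intron transcript Nr1h2-205 took 10.8% ± 2.35. The counts of Nr1h2-203 were 1008, 887 and 431, with posterior SDs of 191, 169 and 91.0. Those of Nr1h2-204 had posterior SDs of 151, 177 and 127, so these shares are less certain than their spread over libraries. Fkbp5-201 took 74.0% ± 8.25 of the TPM of Fkbp5 and Fkbp5-210 took 15.8% ± 4.94, or 85.0% and 12.5% of its counts. Nr1h3 was divided between Nr1h3-201 (50.4% ± 12.5) and Nr1h3-202 (44.3% ± 20.0), a split that its low counts left imprecise, with posterior SDs of 6.71 to 11.4 counts on 11.1 to 32.5 counts.

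By mean level the 10 genes ran Tsc22d3, Nr1h2, Nr3c1, Rara, Rxrb, Fkbp5, Rxra, Ppard, Nr1h3 and Vdr. Neighbours differed by the rule from Tsc22d3 down to Rara and from Rxrb down to Rxra, which made 5 of 9 steps. Rara and Rxrb did not differ by it (0.78 ± 0.40), nor did the steps among Rxra, Ppard, Nr1h3 and Vdr, whose mean log2 differences were 0.39 ± 0.51, 0.00 ± 0.53 and 0.21 ± 0.42. Several of these steps depended on the libraries or the table. Nr1h2 and Nr3c1 (0.60 ± 0.29) did not differ by the rule without library 1 (0.55) or without library 2 (0.49). Rara and Rxrb differed without library 3 (0.99).

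On other scales Tsc22d3 and Nr1h2 (1.61 ± 0.54) were reversed at −1.05 in the second deposited gene table per kilobase of merged exons, and did not differ there per kilobase of merged coding sequence (0.09). Nr3c1 and Rara (1.18 ± 0.35) did not differ per kilobase of merged exons in the second table (0.48) or from expected counts (0.63). Fkbp5 and Rxra (1.06 ± 0.15) did not differ on those scales either, at 0.32 and −0.12. Per kilobase of merged coding sequence in the second table both steps met the rule, at 0.69 for Nr3c1 and Rara and 1.19 for Fkbp5 and Rxra. Rara and Rxrb differed on both exon scales (1.00 and 0.96) and per kilobase of coding sequence (1.19). Among the low genes, Rxra exceeded Ppard on both exon scales (0.68 and 1.01), Ppard was below Nr1h3 on both (−1.47 and −0.48) and Nr1h3 exceeded Vdr in the second table (0.87). None of those steps among the low genes met the rule per kilobase of coding sequence (0.95, −1.11 and 0.15). The step from Rxrb to Fkbp5 met the rule under every alternative run.

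**Figure D3:**
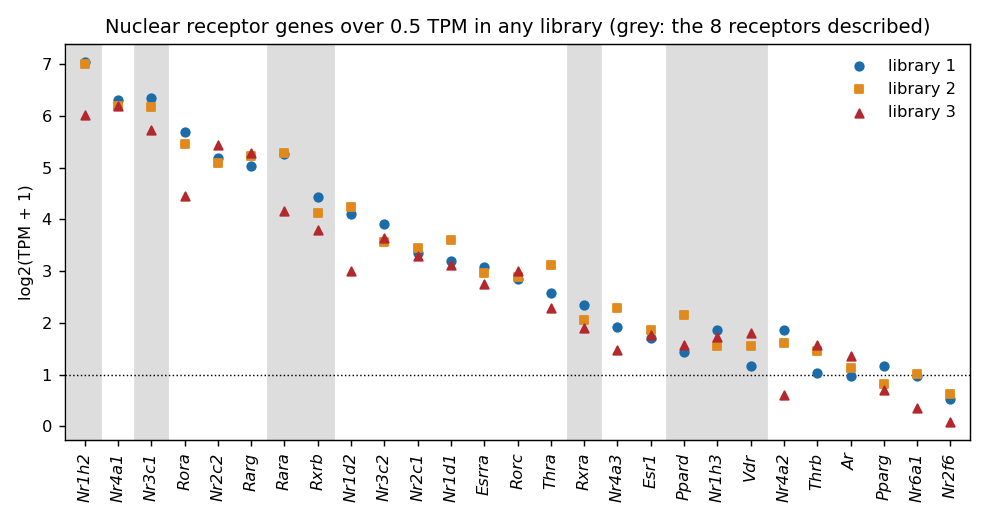
Levels as log2(TPM + 1) of the nuclear receptor genes over 0.5 TPM in any library, in order of mean level and with 1 point per library. Grey bands mark the 8 receptors described here and the dotted line is 1 TPM. Nr1h2 and Nr3c1 are at orders 1 and 3 of 49, and Rxra, Ppard, Nr1h3 and Vdr between orders 16 and 21.

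Within the 49 nuclear receptors of the mouse, 22 were at 1 TPM or more in each library, 23 under 1 TPM in each and 9 without a count. Nr1h2 had the highest mean of them, followed by the immediate early orphan receptor Nr4a1 (73.9 ± 3.72 TPM), Nr3c1 and Rora (38.2 ± 15.3 TPM), a receptor known from T helper and innate lymphoid cells. Nr1h2 was below Nr4a1 in library 3, where they stood at 63.5 and 71.8 TPM. Rara and Rxrb were at orders 7 and 8. Of 14 coregulators that these receptors share 13 were detected, led by the coactivator Ncoa3 (141 ± 18.8 TPM), the corepressor Ncor1 (89.1 ± 11.9 TPM), the deacetylase Hdac3 of the corepressor complex (84.1 ± 5.21 TPM) and the coactivator Ncoa2 (62.2 ± 18.7 TPM).

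The libraries of the 1 donor differed beyond counting error for most of these genes. A Pearson chi-square test of the counts against Poisson sampling, scaled by edgeR's TMM factors and Benjamini-Hochberg adjusted over all 14877 genes with a mean count of 10 or more, called 7 of the 10. It also called 63.9% of all genes tested, 70.1% of protein-coding ones and 88.0% of those with a mean of 1000 counts or more, so the share of the 10 is near the background. Nr1h2 (adjusted p = 5.65e-124), Rara (1.33e-55), Nr3c1 (1.13e-39), Rxrb (6.34e-12) and Rxra (0.00389) were lowest in library 3, a pattern of 29.8% of genes tested. Vdr (0.000255) was highest there, as were 24.3% of genes, and Tsc22d3 (1.97e-49) had library 3 between the others. Fkbp5 (0.0668), Ppard (0.112) and Nr1h3 (0.457) did not pass 0.05, the latter pair at mean counts under 100, where 35.7% of genes passed, against 69.8% at mean counts of 100 to 1000.

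The pathway lists moved between libraries in the same test without a shared direction in most cases. Of all genes tested, 29.8% were called with library 3 lowest and 24.3% with library 3 highest. Over all genes that test called 63.9%, and 88.0% at mean counts of 1000 or more. It called 9 of 9 chaperones (3 lowest and 3 highest in library 3), 11 of 13 coregulators tested (5 and 5), 5 of 7 retinoic acid targets (2 and 2), 4 of 6 PPAR-delta targets (1 and 1) and 2 of 6 ligand enzymes and carriers (1 and 1). More of the called genes were lowest than highest in library 3 among the nuclear receptors (11 and 4, of 17 called among 28 tested), the liver X receptor targets (6 and 2, of 10 called among 11) and the other glucocorticoid targets (5 and 3, of 9 called among 11). The nuclear receptors counted there include the 8 receptors described here, which gave 5 of the lowest and 1 of the highest calls. Hsd11b1 was highest in library 3 (adjusted p = 7.64e-14).

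Without library 3, calls over all genes fell from 9501 of 14877 tested to 4489 of 14868. Of the 7 calls among the 10 genes, 4 were lost without library 3. There the adjusted p was 0.977 for Nr1h2, 0.231 for Rara, 0.0898 for Rxra and 0.860 for Vdr, and Tsc22d3, Nr3c1 and Rxrb stayed called. Rxra was also lost without library 1 (0.290), and Fkbp5 was called without library 2 (0.0258). Variation beyond counting over all genes was 27.8% (coefficient of variation from edgeR's common dispersion) with the 3 libraries and 13.3% without library 3. With the dispersion of all 3 libraries in place of Poisson sampling none of the 10 was called, and 84 genes were called in all. None of the 10 had an unadjusted p under 0.05 in that chi-square test, against 7.02% of the 14877 genes tested. The dispersion was estimated from the same libraries that were tested, so few calls could follow, and no conclusion about the 10 is drawn from it.

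The deviation of library 3 went with local GC content over the transcriptome. The median log2 ratio of library 3 to the mean of the other libraries was 0.17 for genes whose leading transcript reached less than 55% GC in its richest window of 200 bases, −0.84 at 70% to 75%, −0.99 at 75% to 80% and −0.09 above 80%. Rara, at 75.5%, had −1.05, close to the median of its class. Nr1h2 had the same deviation, −1.06, at 66.5%, where the median of genes between 65% and 70% was −0.06, and Nr3c1 had −0.42 at 76.0%. After the GC trend was removed 7 of the 10 were still called, and 8724 of all 14877 genes tested were called. The adjusted p was 0.00514 for Rara and 8.11e-109 for Nr1h2 in the same chi-square test with edgeR's factors.

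**Figure D4:**
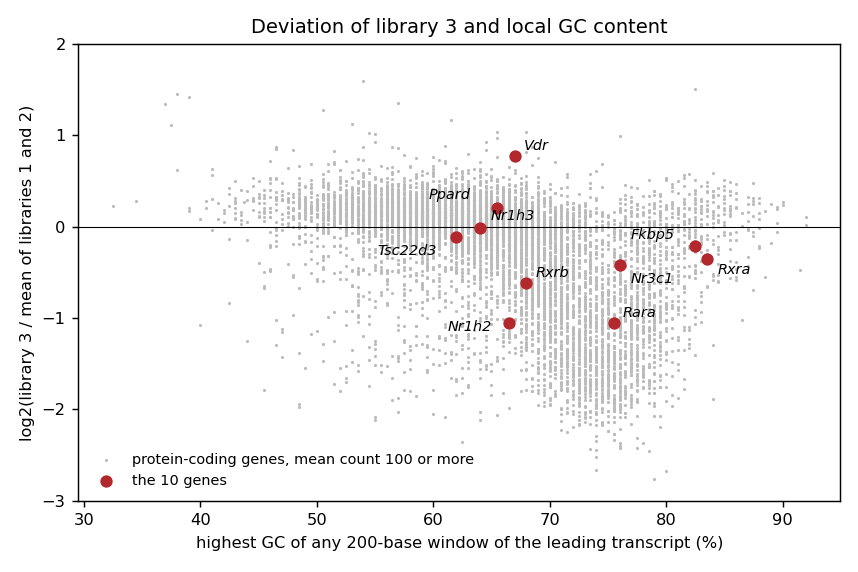
Log2 ratio of library 3 to the mean of libraries 1 and 2 (scaled counts) against the GC percent of the richest 200-base window in the leading transcript, for 9309 protein-coding genes with a mean count of 100 or more (grey) and the 10 genes (red). Rara lies in the low cloud at 75.5% GC, while Nr1h2 at 66.5% lies below most genes of like GC and Vdr above them.

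The second gene table counted these genes unevenly against the first. Tsc22d3 had 703, 736 and 657 reads there, 9.36% of its first count, whereas Nr1h3 kept 79.4%, Nr1h2 53.5%, Rxrb 50.3%, Rara 49.9% and Nr3c1 44.0%. Over 9227 protein-coding genes the median was 45.5%, and the share kept rose with the part of the transcript that is coding sequence, from a median of 21.1% where it was under 20% to 76.5% where it was over 80%. Across these genes Spearman's rho was 0.616, which describes genes of the same libraries and is not a test. The coding share of a gene was taken over all its transcripts, weighted by their counts. Tsc22d3, with a coding share of 19.8%, kept less than the median of the class under 20%. Ppard, with a coding share of 11.3%, kept 22.3%. Fkbp5 kept 30.1%, Rxra 17.8% and Vdr 39.3%. The same chi-square test with edgeR's factors called 7 of the 10 in that table, with Ppard (adjusted p = 0.0449) in place of Rxra (0.231). It called 6213 of all 10936 genes tested there.

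**Figure D5:**
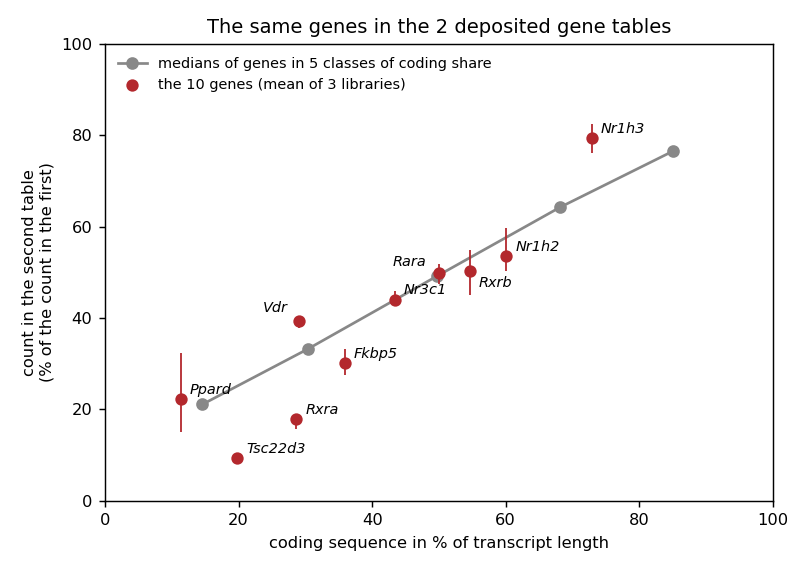
Count in the second gene table in percent of the count in the first against coding sequence in percent of transcript length, over a gene's transcripts weighted by counts. Red points are the 10 genes (mean of 3 libraries, vertical lines their range) and the grey line joins the medians of all protein-coding genes with a mean count of 100 or more in 5 classes of coding share, with Tsc22d3 well below it at 9.36%.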

How the data were processed

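PolyA-selected RNA of regulatory T cells was sequenced in 3 libraries of 1 donor, sheared on a Covaris instrument per the labels. Per the file headers the authors deposited, for each library, expected counts, TPM, FPKM and the percent of its gene's TPM held by each transcript, and a second gene table of whole-number counts. The assembly is mm10 and the annotations are GENCODE M21 and, for the second table, M4, per the deposited text beside the files. Not given in the sources used here are the aligner, the counter and the second table's counting rule. The 10 genes and all lists were chosen with earlier results of these data known.

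Expected counts were rounded. Genes with a mean count of 10 or more were compared between libraries with Pearson's chi-square against Poisson sampling (2 degrees of freedom, edgeR 4.0.16 TMM factors, Benjamini-Hochberg over all genes, threshold 0.05). With 1 group no test between conditions exists, and p-values measure only the spread between these libraries, which the labels call technical. Pairs used log2(TPM + 1), which understates ratios of low genes, and differed when the sign was shared by the 3 libraries and the mean exceeded 2 SD. Zero floors are 3 counts. The named genes were drawn from the 10, their paralogs in pairs, the 4 highest of each list, genes without a count where a list has 4 or fewer, Foxp3, Cd4, Il2ra and the macrophage markers Csf1r, Adgre1 and Lyz2. Gm13783, Cyp27b1, Cyp24a1, Pdk4, Scd1, Abca1 and Ccr9 fall outside this rule and were named after their values were seen. Promoter sequences are from RefSeq (GRCm38.p6). Alternatives were DESeq2 1.42.0 size factors, total counts, other filters, edgeR's dispersion, a GC correction, other length scalings and each library left out.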

Additional observations from a re-analysis of the deposited data

How the results depend on the processing

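Genes that differed between libraries numbered 9501, from 8480 to 10065 under DESeq2 size factors, total counts, a mean count of 50, no filter and a GC correction, 6213 in the second gene table, 84 with edgeR's common dispersion and 4489 to 8029 with 1 library left out. Of the 10 genes 7 differed under each of these but the last 2 settings, which gave 0 and 3 to 8, the 3 without library 3. The median level of 12.3 TPM was 15.0 when rescaled to nuclear protein-coding genes and 7.97 as FPKM. Pairs that differed numbered 11 to 13 of 18 over the alternatives. Tsc22d3 over Nr1h2 was reversed per kilobase of exons in the second table (−1.05). Fkbp5 over Rxra changed sign from expected counts per kilobase of merged exons (−0.12) but did not differ there by the rule. The cause of either change was not tested. Ppard, Nr1h3 and Vdr rest on 40 to 110 counts a library, and their order was not resolved at this depth. No paired analysis was possible because the series has 1 group.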
